A study of Mus musculus with 16 samples.

Results

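Serpins are protease inhibitors that share 1 protein fold. The genes described here are the protein-coding mouse genes named Serpina to Serpini with a number, 61 of the 53379 genes in a liver RNA-sequencing table. Of them 24 belong to clade A, 26 to clade B, 3 to clade E, 2 each to clades F and I, and 1 each to clades C, D, G and H. The livers came from Mettl3 cKO mice and from Control mice at postnatal day 1 (P1) and at week 1 (W1), week 2 (W2) and week 4 (W4), which makes 8 groups of 2 libraries. Mettl3 is the catalytic subunit of the enzyme that writes N6-methyladenosine on mRNA. The cKO mice carried Mettl3 alleles with loxP sites around exons 2 to 4 together with Cre under the albumin enhancer and promoter, which is active in hepatocytes, while Control mice were littermates labelled WT. All mice were on a C57BL/6J background. Values are FPKM (fragments scaled to transcript length and library size), so levels of different genes can be compared per length.

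A serpin presents a reactive loop as bait, and the protease that cuts it is trapped in a covalent complex. Hepatocytes secrete most clade A serpins and the clade C, D, F and G serpins into plasma, where they restrain elastase, clotting, fibrinolytic and complement proteases. A few lost inhibition and carry hormones or fold collagen, and clade B members stay mostly inside cells.

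The 16 libraries had an estimated depth of 10.7 to 15.4 M reads (median 14.0), at which a single read over 2 kb of transcript gives 0.0324 to 0.0465 FPKM. Mettl3 itself stood at 9.20 and 9.25 FPKM in cKO livers, against 7.83 and 6.40 FPKM in Control livers at W4. That value also counts the exons that remain after deletion, so it does not check the labels, and cKO stands below for the libraries labelled cKO. By Xist and Eif2s3y, both W1 cKO livers were female and both W1 Control livers were male, so that sex and genotype cannot be told apart at W1, while all W2 and W4 livers were male. At P1 both cKO livers were female and the Control livers were 1 male and 1 female. Mitochondrially encoded genes took 25.2 and 43.8% of all FPKM in the W2 cKO libraries and 58.1 and 59.0% in the W2 Control libraries, which lowers the FPKM of other genes there. At W4, Control replicate 1 stood apart for serpins, which summed to 6904 and 7742 FPKM in the cKO libraries and to 22182 and 8201 FPKM in the Control libraries. These sums were 1.71 and 1.82% of the FPKM of nuclear genes in W4 cKO livers and 4.90 and 1.98% in W4 Control livers. Defining hepatocyte markers were high in every library, with Alb at 14347 and 15710.0 FPKM in cKO livers and 41402 and 34256 FPKM in Control livers at W4.

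Few serpin genes passed the test in the first week, and by W4 most did, in both directions. In all, 30 members reached 1 FPKM in at least 2 libraries and were tested with limma on log2(FPKM + 1), with adjustment over all 14913 genes tested and a call at an adjusted p under 0.05. Every log2 fold change below is cKO over Control on that scale, which understates the change of low genes. At P1, 0 of the 30 members were called, against 0.168% of all genes. An unadjusted p under 0.05 was found for 9 of the 30, a larger share than the 11.1% of all genes, and that difference was not tested. With 2 libraries per group, groups often lie apart without a call. At P1 both cKO libraries lay above both Control libraries in 4 of the 30 and below them in 19. At W4 these counts were 16 and 7. The shares over all genes were not counted, so groups that lie apart are given below as a description. At W1, 1 member was higher in cKO livers (3.24% of all genes) and 0 were lower (1.59%). At W2, 9 members were higher (24.6% of all genes were) and 0 were lower (4.49%), and rescaling changed that split to 7 and 1 by median of ratios and to 5 and 1 by nuclear genes, the lower one being Serpina1e. At W4, 15 members were higher and 6 lower, and the shares among all genes were 46.9% and 12.4%. Serpina3i and Serpina12 reached 1 FPKM only in the W4 cKO and the W4 Control libraries, so the filter let them in through the group where they are high, and without them 14 of 28 members were higher and 5 lower. Serpina5, which reached 1 FPKM only in W4 cKO replicate 1 and P1 Control replicate 2, is still in these counts among the higher. The share of members called higher was near that of all genes, while the share called lower was above it, and no test of that difference was run. The median log2 fold change of the members was -0.37 at P1, 0.07 at W1, 0.54 at W2 and 0.61 at W4, beside -0.03, 0.07, 0.22 and 0.44 over all genes. Because the W4 median of all genes was itself 0.44, a rescaling that sets it to 0 (median of ratios) left 14 members higher and 11 lower at W4, of 29 tested.

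**Figure D1:**
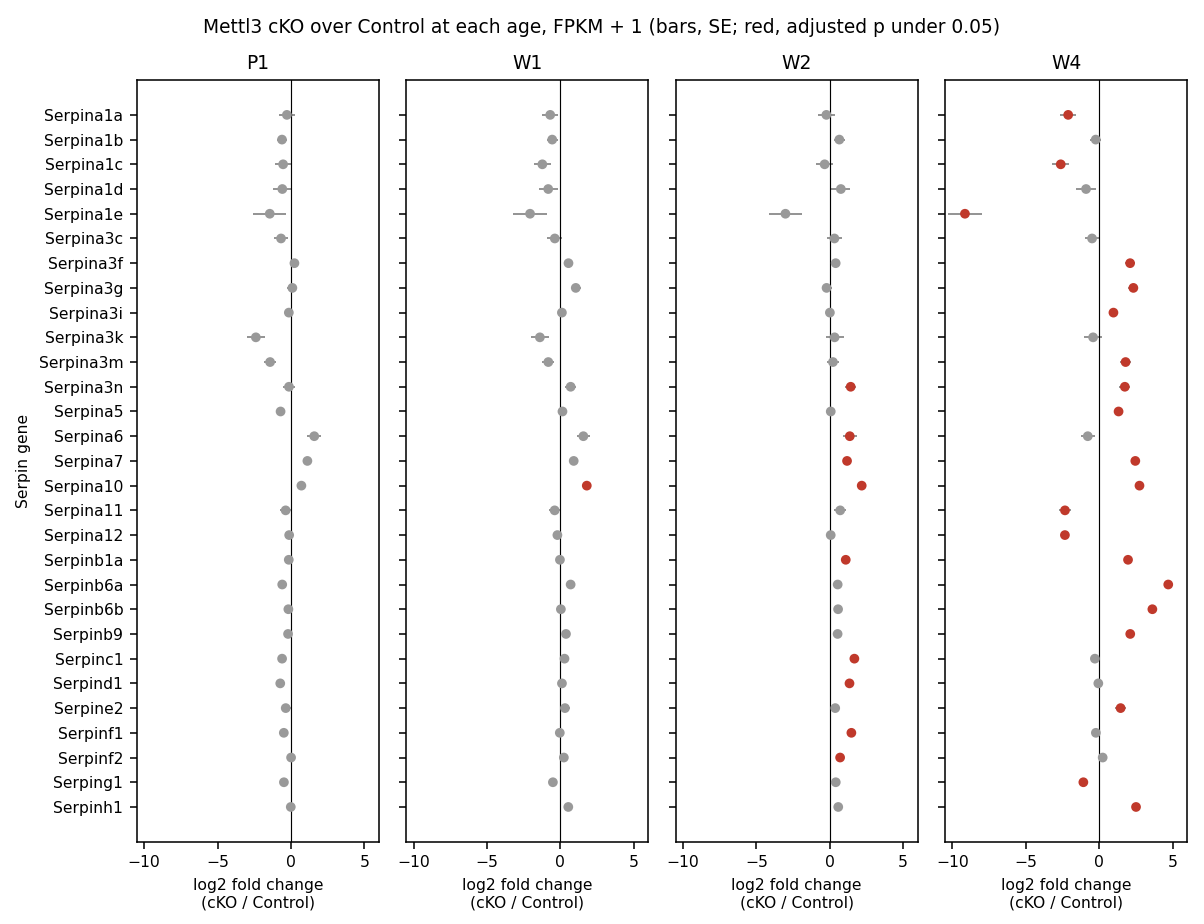
Log2 fold change of cKO over Control (x axis, FPKM + 1) for 29 of the 30 tested Serpin genes (rows) at each age, with SE bars; red points passed the adjusted p of 0.05 and grey points did not. The P1 panel holds 0 red points, 9 red points lie right of 0 at W2, and the W4 panel holds 14 red points to the right and 6 to the left.

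**Figure D2:**
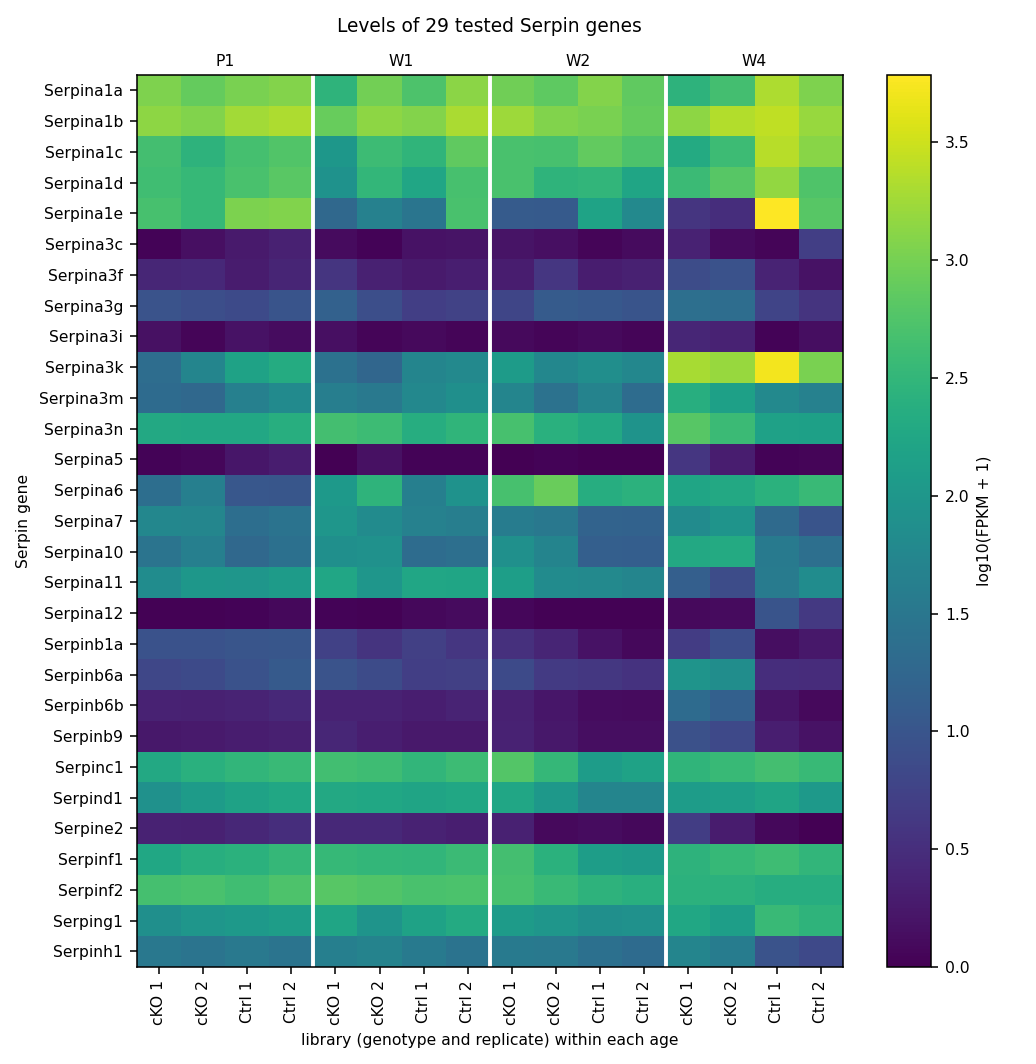
Level of 29 of the 30 tested Serpin genes in each library, coloured by log10(FPKM + 1), with the cKO libraries left of the Control libraries within each age. Serpina1a to Serpina1d stay bright throughout, whereas Serpina1e darkens in the cKO columns to 2.79 and 2.18 FPKM at W4 and is brightest in W4 Control replicate 1, at 6112 FPKM.

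Alpha-1 antitrypsin, the main plasma inhibitor of neutrophil elastase, is made from 1 gene in humans and from the Serpina1a to Serpina1e genes in C57BL/6 mice. These 5 genes diverged from each other in the cKO livers. Serpina1e was nearly lost at W4, with 2.79 and 2.18 FPKM in cKO livers, against 6112 and 626 FPKM in Control livers (log2 fold change -9.14, SE 1.14, adjusted p = 2.83e-05). The means were 2.49 ± 0.432 FPKM in cKO livers and 3369 ± 3880 FPKM in Control livers (SD, n = 2 each), so the Control libraries differed widely from each other. Even the lower Control library, replicate 2, lay far above both cKO libraries, and without Control replicate 1 the log2 fold change was -7.49 (adjusted p = 0.000277). Hepatocyte markers summed to 29201 and 30007 FPKM in W4 cKO livers and 65513 and 57325 FPKM in W4 Control livers. Alb was the largest part of each sum. Of the 8 markers, 4 were called lower and 0 higher at W4. Among those not called lower, Tat had 1107 and 890 FPKM in cKO livers, against 870 and 830 FPKM in Control livers. The part of hepatocyte content in the Serpina1e difference was not tested. In bulk liver, fewer cells of a type and less RNA per cell cannot be told apart.

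The mean of Serpina1e was lower in cKO livers at the earlier ages too, although only W4 passed the test. At P1 it stood at 486 and 348 FPKM in cKO livers, against 1093 and 1158 FPKM in Control livers. Values at W1 were 17.8 and 45.0 FPKM in cKO livers, against 29.0 and 504 FPKM in Control livers, and at W2 they were 11.3 and 10.8 FPKM in cKO livers, against 158 and 59.0 FPKM in Control livers. The cKO libraries lay below both Control libraries at P1 and W2 and overlapped them at W1. The W2 difference was -3.02 (SE 1.14, adjusted p = 0.0644) and passed after scaling each library to its nuclear genes (-3.52, adjusted p = 0.0326). In cKO livers the level was lower at each successive age, and W4 minus P1 was -6.89 (SE 1.14, adjusted p = 0.000272).

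Serpina1a and Serpina1c were also lower in cKO livers at W4, by less. Serpina1c stood at 206 and 394 FPKM in cKO livers, against 2368 and 1294 FPKM in Control livers (log2 fold change -2.61, SE 0.58, adjusted p = 0.00197), and Serpina1a at 276 and 452 FPKM in cKO livers, against 2071 and 1123 FPKM in Control livers (log2 fold change -2.11, SE 0.55, adjusted p = 0.00571). For both genes the groups did not overlap, but the Serpina1a call was lost without cKO replicate 1 (-1.75, adjusted p = 0.0542). Serpina1b and Serpina1d were not called at any age. Serpina1b had 1402 and 2223 FPKM in cKO livers, against 2693 and 1594 FPKM in Control livers at W4, groups that overlapped (-0.23, adjusted p = 0.624), and Serpina1d had 374 and 629 FPKM in cKO livers, against 1475 and 548 FPKM in Control livers (-0.89, adjusted p = 0.264).

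The makeup of the Serpina1 transcripts therefore differed between genotypes at W4. Serpina1b supplied 62.0 and 60.1% of the summed Serpina1 FPKM in cKO livers and 18.3 and 30.7% in Control livers. Serpina1e supplied 0.124 and 0.0589% in cKO livers and 41.5 and 12.1% in Control livers. The sum of all 5 genes was 2260.0 and 3701 FPKM in cKO livers, against 14718 and 5184 FPKM in Control livers. At P1 Serpina1b supplied 36.1 and 40.0% in cKO livers and 36.8 and 37.0% in Control livers.

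**Figure D3:**
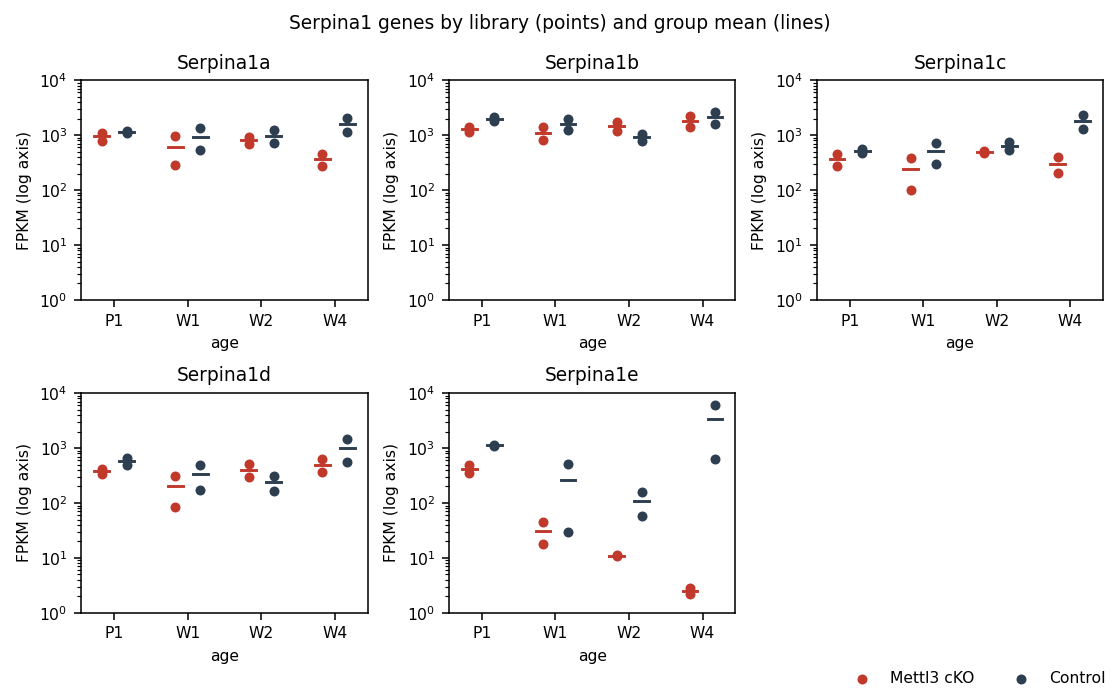
FPKM (log axis, same range in each panel) of Serpina1a to Serpina1e in each library (points) with group means (lines), cKO in red left of Control in dark blue, by age. Serpina1e separates at W4, where its cKO points lie at 2.79 and 2.18 FPKM and its Control points at 6112 and 626 FPKM, while the Serpina1b points overlap.

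These genes are near-identical copies, so reads can be shared among them. Of all 150-base windows of their annotated transcripts, 40.7% in Serpina1a, 16.4% in Serpina1b, 50.5% in Serpina1c, 23.3% in Serpina1d and 7.57% in Serpina1e occurred in another gene's transcripts. No source used here says how such reads were assigned, so the levels of Serpina1a and Serpina1c are the least certain. The likeness extends upstream of the genes. The stretches below show it, each 100 bases long, from just before the annotated start of transcription on chromosome 12 (RefSeq, GRCm38.p6, minus strand, 5′ to 3′). Capitals mark GTTAAT, the core half-site of the liver factor HNF1.
Serpina1a: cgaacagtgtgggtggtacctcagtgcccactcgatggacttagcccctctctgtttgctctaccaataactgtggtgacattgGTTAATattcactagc
Serpina1b: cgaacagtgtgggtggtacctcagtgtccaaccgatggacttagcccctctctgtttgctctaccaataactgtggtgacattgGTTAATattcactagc
Serpina1c: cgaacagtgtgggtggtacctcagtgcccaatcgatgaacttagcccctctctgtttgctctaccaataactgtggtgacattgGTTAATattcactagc
Serpina1d: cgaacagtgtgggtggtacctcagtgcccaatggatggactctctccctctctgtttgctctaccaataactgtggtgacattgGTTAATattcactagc
Serpina1e: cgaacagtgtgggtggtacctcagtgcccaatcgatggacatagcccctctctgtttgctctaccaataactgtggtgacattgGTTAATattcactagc
The stretches lie at chr12:103863625-103863724, chr12:103738200-103738299, chr12:103904962-103905061, chr12:103773634-103773733 and chr12:103956960-103957059, in the order listed, and end 5, 10, 11, 0 and 62 bases before the annotated start. With positions counted from 1 at the 5′ end and Serpina1b as the reference, Serpina1e differed at 3 positions (T27C, C32T and T41A), Serpina1c at 3 (T27C, C32T and G38A), Serpina1a at 3 (T27C, A31C and C32T) and Serpina1d at 7. Identity to Serpina1b was 97% for Serpina1a, Serpina1c and Serpina1e and 93% for Serpina1d, and the half-site at base 85 was the same in all 5. At W4 the log2 fold changes were -9.14 for Serpina1e, -2.61 for Serpina1c and -0.23 for Serpina1b, and the part of these bases in them was not tested. Within 250 bases before to 50 bases after the start, GTTAAT on either strand occurred in 8.24% of 27025 genes and in 7 of the 14 tested clade A genes with a promoter in the table (Serpina1a to Serpina1e, Serpina3c and Serpina7). The 5 Serpina1 genes are near-identical copies with the same half-site, so these 7 are not separate matches and cannot be set against the share of all genes. A match is only a run of letters, and the window says nothing of binding.

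Of the neighbours of the Serpina1 genes on chromosome 12, Serpina11 was also lower in cKO livers at W4, and Serpina12 was low in cKO livers. Serpina12, or vaspin, an inhibitor of kallikrein 7 secreted by fat and liver, was low in all but the W4 Control libraries. It stayed at or under 0.282 FPKM in the 12 libraries of P1, W1 and W2. At W4 it had 0.253 and 0.277 FPKM in cKO livers, against 8.67 and 3.18 FPKM in Control livers, given as a description because only those Control libraries carried it past the filter. Serpina11, a little-studied secreted serpin of liver, had 13.0 and 6.48 FPKM in cKO livers, against 36.6 and 69.2 FPKM in Control livers at W4 (log2 fold change -2.32, SE 0.41, adjusted p = 0.000399), with no overlap. At P1 Serpina11 stood at 69.0 and 100.4 FPKM in cKO livers and 98.1 and 118 FPKM in Control livers, which overlapped. At W2 its order was the opposite of that at W4, with 131 and 65.3 FPKM in cKO livers, against 60.0 and 52.5 FPKM in Control livers, groups apart that did not pass the test (0.71, SE 0.41, adjusted p = 0.219). Of its transcript windows, 39.6% of its transcript windows also occur in a transcript of the overlapping gene model Gm28577.

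Serpina10, the protein Z-dependent inhibitor of clotting factor Xa, was the member called at the most ages. It stood at 28.1 and 42.2 FPKM in cKO livers, against 18.0 and 23.9 FPKM in Control livers at P1 (0.70, adjusted p = 0.372). At W1 the values were 75.7 and 82.3 FPKM in cKO livers, against 21.0 and 23.1 FPKM in Control livers (log2 fold change 1.80, SE 0.26, adjusted p = 0.00231). The W1 call was lost with a term for sex (1.40, adjusted p = 0.403), which at that age coincides with genotype. At W2 Serpina10 had 77.5 and 49.4 FPKM in cKO livers, against 13.1 and 12.7 FPKM in Control livers (2.18, SE 0.26, adjusted p = 0.000148), and at W4 it had 191 and 203 FPKM in cKO livers, against 35.0 and 23.0 FPKM in Control livers (2.75, SE 0.26, adjusted p = 3.07e-06). Both cKO libraries lay above both Control libraries at all 4 ages.

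Both hormone carriers of clade A were higher in cKO livers at W2 and parted at W4. Serpina7, thyroxine-binding globulin, had 37.6 and 31.9 FPKM in cKO livers, against 15.2 and 14.3 FPKM in Control livers at W2 (1.18, SE 0.30, adjusted p = 0.0111). It did not pass after scaling to nuclear genes (0.70, adjusted p = 0.0696), without Control replicate 2 (adjusted p = 0.0559) and without cKO replicate 1 (adjusted p = 0.0839). At W4 it had 65.4 and 91.4 FPKM in cKO livers, against 19.6 and 8.75 FPKM in Control livers (2.47, SE 0.30, adjusted p = 2.31e-05), and its groups were apart at every age. Serpina6, corticosteroid-binding globulin, had 475 and 846 FPKM in cKO livers, against 226 and 266 FPKM in Control livers at W2 (1.36, SE 0.47, adjusted p = 0.0447), a call that was lost without any 1 of the 4 W2 libraries (adjusted p from 0.0551 to 0.226) and after either rescaling (adjusted p = 0.168 and 0.211). Its order was the opposite at W4, with 169 and 193 FPKM in cKO livers, against 258 and 371 FPKM in Control livers, a difference that did not pass on the deposited scale (-0.77, SE 0.47, adjusted p = 0.174) and did after median-of-ratios rescaling (-1.40, adjusted p = 0.039). Serpina6 was among the members that changed most with age, with 22.1 and 42.7 FPKM in cKO livers and 9.82 and 9.43 FPKM in Control livers at P1, and W4 minus P1 was 2.52 in cKO livers and 4.87 in Control livers (adjusted p = 0.000657 and 2.78e-06).

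The Serpina3 genes, a mouse expansion of the single human alpha-1 antichymotrypsin gene, were mostly higher in cKO livers at W4. Of the 7 tested, 5 were called higher and 2 were not called, beside 46.9% of all genes called higher. Of the 5, Serpina3i passed the filter only through these cKO libraries. Serpina3n, an acute-phase inhibitor of granzyme B, had 638 and 376 FPKM in cKO livers, against 147 and 142 FPKM in Control livers (log2 fold change 1.75, SE 0.38, adjusted p = 0.00161). At W2 it had 484 and 254 FPKM in cKO livers, against 193 and 87.3 FPKM in Control livers (1.43, SE 0.38, adjusted p = 0.0139), and that call was lost after scaling to nuclear genes (0.92, adjusted p = 0.0585), without Control replicate 2 (0.86) or without cKO replicate 1 (0.96, adjusted p = 0.139 and 0.152). Serpina3g, which inhibits lysosomal cathepsins in mouse lymphocytes, stood at 23.5 and 21.9 FPKM in cKO livers, against 5.03 and 2.66 FPKM in Control livers at W4 (2.33, SE 0.34, adjusted p = 8.89e-05). Serpina3f had 6.64 and 7.93 FPKM in cKO livers, against 1.37 and 0.541 FPKM in Control livers (2.11, SE 0.32, adjusted p = 0.00013), and the low Serpina3i had 1.57 and 1.31 FPKM in cKO livers, against 0.105 and 0.390 FPKM in Control livers, given as a description. In these 4 genes the W4 groups did not overlap.

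Serpina3k and Serpina3m, whose gene models share a start and overlap, behaved differently. Serpina3k, a kallikrein-binding serpin, ranked 20 among nuclear genes in W4 cKO livers and 14 in W4 Control livers. Its W4 values were 1935 and 1612 FPKM in cKO livers, against 5270.5 and 1045 FPKM in Control livers, with cKO between the Control libraries (-0.41, adjusted p = 0.593). Its largest genotype difference was at P1, with 21.7 and 51.7 FPKM in cKO livers, against 153 and 215 FPKM in Control livers, which did not pass over all genes (-2.40, SE 0.61, adjusted p = 0.178). Serpina3m had 20.2 and 18.2 FPKM in cKO livers, against 44.3 and 64.1 FPKM in Control livers at P1 (-1.43, adjusted p = 0.232), also groups apart. By W4 the order of Serpina3m had turned, with 239 and 142 FPKM in cKO livers, against 59.5 and 45.4 FPKM in Control livers (1.80, SE 0.40, adjusted p = 0.00201). Only 0.262% of the transcript windows of Serpina3k and 0.331% of those of Serpina3m occurred in another gene's transcripts.

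Serpina5, the protein C inhibitor, was low in all libraries and higher in cKO livers at W4, with 2.96 and 0.988 FPKM in cKO livers, against 0.107 and 0.132 FPKM in Control livers (1.33, SE 0.27, adjusted p = 0.00118). It reached 1 FPKM only in W4 cKO replicate 1 and P1 Control replicate 2. The filter thus let it in through libraries of the groups where it is high, and its differences are given as a description. Its P1 order was the opposite, with 0.0967 and 0.163 FPKM in cKO livers, against 0.697 and 1.02 FPKM in Control livers (-0.71, adjusted p = 0.386). Serpina3c stayed at or under 4.08 FPKM and was not called in any comparison. The 23 clade A members outside the X chromosome lie within 799.5 kb of chromosome 12 (103614786 to 104414329 in mm10), and 17 of them were tested. Grouped by position after their values were seen, the 8 tested genes from Serpina6 to Serpina12 held 0 called higher and 5 called lower at W4. The 8 from Serpina5 to Serpina3n held 6 called higher and 0 called lower, and Serpina10 at the far end was higher. These counts include Serpina12 among the lower, and Serpina3i and Serpina5 among the higher. Over all genes, 46.9% were called higher and 12.4% lower at W4. The STAT factor motif TTCNNNGAA, found on either strand in 9.55% of 27025 promoters, occurred in 4 of the 14 tested clade A promoters (Serpina11, Serpina3f, Serpina3g and Serpina3i), and the HNF4 core CAAAGTCCA (0.555%) in 0. The Serpina3 genes among them are related copies, so these may not be separate matches.

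**Figure D4:**
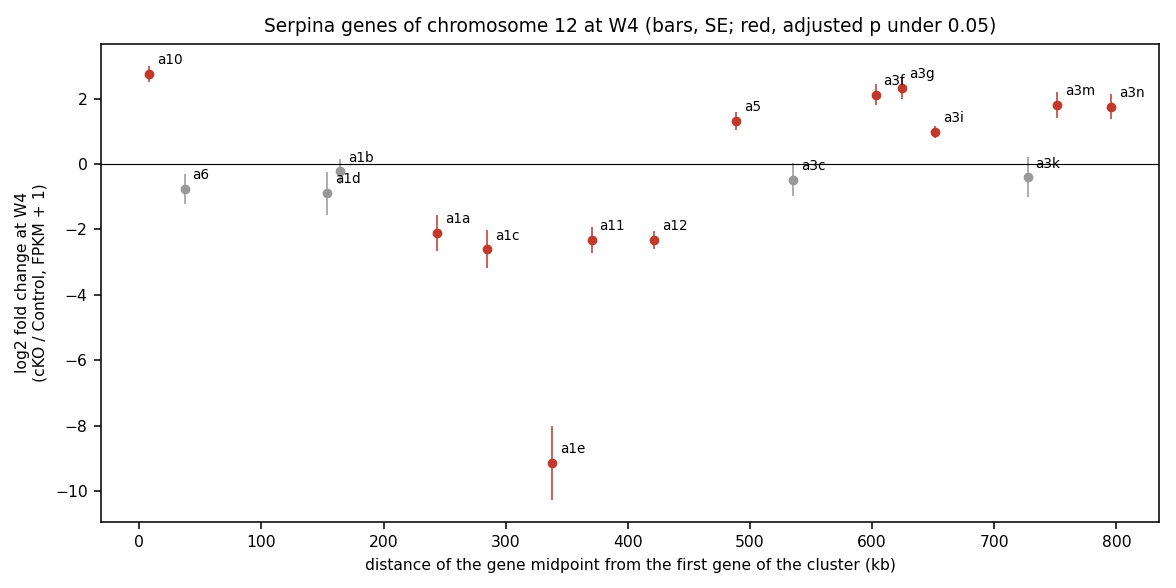
W4 log2 fold change of cKO over Control (y axis, SE bars, red where adjusted p was under 0.05) for the 17 tested genes of the chromosome 12 cluster, against distance in kb from its first gene; gene names omit Serpin. Serpina10 at the left end is at 2.75, the block from Serpina6 to Serpina12 lies below 0 with Serpina1e at -9.14, and from Serpina5 on the called genes lie above 0.

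The clotting, fibrinolysis and angiogenesis serpins of plasma (clades C, D and F) passed the test at W2 and at no other single age, with higher levels in cKO livers. Serpinc1, antithrombin, had 584 and 331 FPKM in cKO livers, against 125 and 150.1 FPKM in Control livers at W2 (log2 fold change 1.68, SE 0.27, adjusted p = 0.000788). Serpinf1, the non-inhibitory pigment epithelium-derived factor, had 447 and 261 FPKM in cKO livers, against 129 and 116 FPKM in Control livers (1.47, SE 0.26, adjusted p = 0.00145). Serpind1, heparin cofactor II, had 173 and 105 FPKM in cKO livers, against 52.7 and 52.3 FPKM in Control livers (1.34, SE 0.27, adjusted p = 0.0028), and in each of these 3 genes the groups were apart. In all 3 genes the W2 Control libraries, those with the highest mitochondrial share, were the lowest of the 16. After scaling to nuclear genes the calls held at smaller sizes, 1.18 for Serpinc1, 0.97 for Serpinf1 and 0.85 for Serpind1.

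Serpinf2, alpha-2-antiplasmin, the main plasmin inhibitor, had 489 and 371 FPKM in cKO livers, against 277 and 246 FPKM in Control livers at W2 (0.71, SE 0.19, adjusted p = 0.0142), and this smaller difference did not pass after either rescaling (0.33, adjusted p = 0.141 by median of ratios and 0.20, adjusted p = 0.358 by nuclear genes). The W2 call of Serpinf2 was lost under 5 of 11 alternatives. With 1 library left out its adjusted p reached 0.120, and without W2 cKO replicate 1 the difference was 0.51. It declined with age in both genotypes, with a W4 minus P1 of -0.83 in cKO livers and -1.07 in Control livers (adjusted p = 0.0025 and 0.000403). With a term for sex the cKO decline did not pass (-0.47, adjusted p = 0.295).

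At W4 these genes were close between genotypes on the deposited scale. Serpinc1 had 297 and 354 FPKM in cKO livers, against 444 and 353 FPKM in Control livers (-0.29, SE 0.27, adjusted p = 0.379), Serpind1 122 and 130.5 FPKM in cKO livers, against 161 and 106 FPKM in Control livers (-0.05, SE 0.27, adjusted p = 0.886) and Serpinf1 278 and 339 FPKM in cKO livers, against 408 and 314 FPKM in Control livers (-0.22, SE 0.26, adjusted p = 0.493). Relative to the W4 median of all genes these were lower, and after median-of-ratios rescaling all 3 were called lower in cKO livers (-0.92 for Serpinc1, -0.68 for Serpind1 and -0.85 for Serpinf1, adjusted p = 0.00623, 0.0311 and 0.00849), while nuclear-gene rescaling called 0 of the 3. Serping1, the C1 inhibitor of the complement and contact systems, was lower in cKO livers on the deposited scale, with 181 and 131 FPKM in cKO livers, against 369 and 286 FPKM in Control livers at W4 (-1.07, SE 0.28, adjusted p = 0.00528). Its groups were apart, but the call was lost without cKO replicate 2 (-0.84, adjusted p = 0.0554).

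The clade B serpins, which protect cells from their own or incoming granule and lysosomal proteases, were higher in cKO livers at W4 in 4 of the 4 tested. Of all genes, 46.9% were called higher at W4. The other 22 of the 26 members of the clade were too low to test. Serpinb6a, whose human counterpart inhibits cathepsin G, changed most, with 90.5 and 70.8 FPKM in cKO livers, against 2.18 and 2.03 FPKM in Control livers (log2 fold change 4.71, SE 0.23, adjusted p = 3.24e-08). The ratio of the group means was 38.4. At P1 it stood at 5.31 and 6.16 FPKM in cKO livers and 7.91 and 10.7 FPKM in Control livers, so Control livers fell with age (-1.72) and cKO livers rose (3.59, adjusted p = 4.86e-05 and 1.37e-07). Serpinb6b, also on chromosome 13 but with other clade B genes in between, followed with 20.4 and 13.3 FPKM in cKO livers, against 0.631 and 0.228 FPKM in Control livers (3.63, SE 0.21, adjusted p = 1.24e-07). Serpinb9, the granzyme B inhibitor of cytotoxic lymphocytes, had 7.75 and 5.94 FPKM in cKO livers, against 1.06 and 0.557 FPKM in Control livers (2.12, SE 0.19, adjusted p = 2.41e-06). Serpinb1a, an inhibitor of neutrophil elastase and cathepsin G, had 3.72 and 6.73 FPKM in cKO livers, against 0.361 and 0.746 FPKM in Control livers (1.97, SE 0.26, adjusted p = 4.75e-05). In all 4 genes the W4 groups were far apart relative to their spread.

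Serpinb1a was called at W2 as well, with 2.40 and 1.48 FPKM in cKO livers, against 0.522 and 0.221 FPKM in Control livers at W2 (1.09, SE 0.26, adjusted p = 0.00844), a call lost without cKO replicate 1 (0.86, adjusted p = 0.0928) or without Control replicate 2 (0.93, adjusted p = 0.0636). Its Control level declined across the ages, with a W4 minus P1 of -2.71 (adjusted p = 3.00e-06), beside -0.58 in cKO livers (adjusted p = 0.0756). Neutrophil markers fell between P1 and W4 in each genotype, 7 of 7 tested, where 25.4% of all genes fell in cKO livers and 42.1% in Control livers. They summed to 2119 and 2366 FPKM in P1 cKO livers and 2403 and 2488 FPKM in P1 Control livers, and to 9.06 and 4.41 FPKM in W4 cKO livers and 5.53 and 3.64 FPKM in W4 Control livers.

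**Figure D5:**
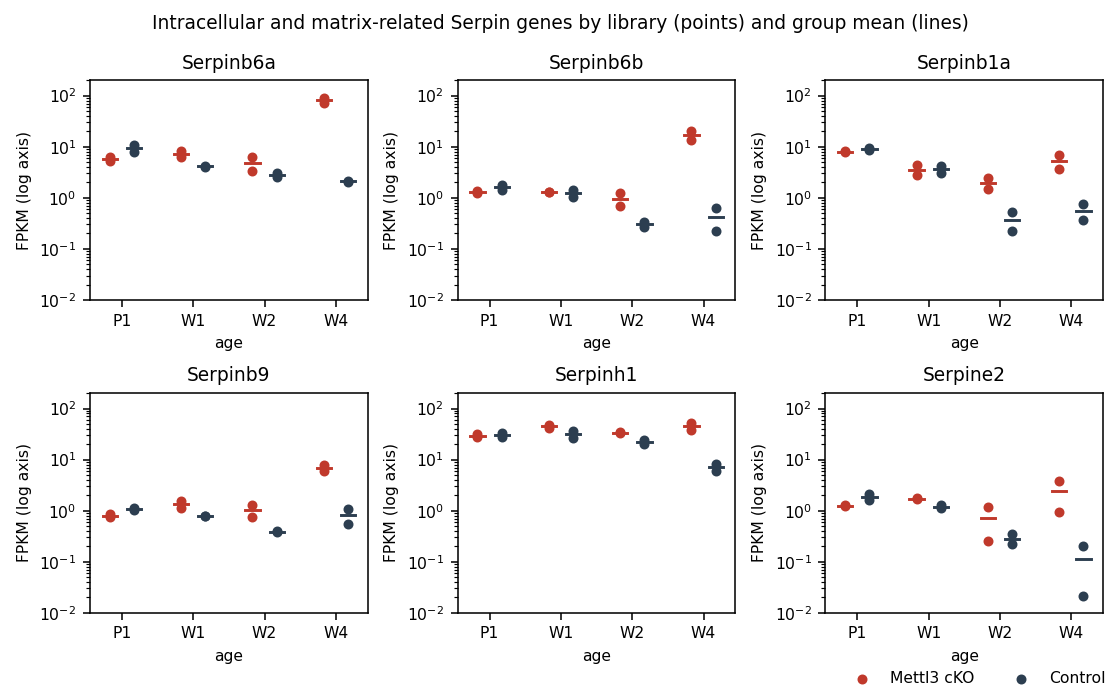
FPKM (log axis, same range in each panel) of clade B genes, Serpinh1 and Serpine2 in each library (points) with group means (lines), cKO in red left of Control in dark blue, by age. In all 6 genes the W4 cKO points lie above the W4 Control points, at 90.5 and 70.8 FPKM against 2.18 and 2.03 FPKM for Serpinb6a.

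Serpins that act on collagen folding and at the cell surface were higher in cKO livers at W4 too. Serpinh1, the collagen chaperone HSP47 that resides in the endoplasmic reticulum, had 52.3 and 38.2 FPKM in cKO livers, against 8.25 and 5.92 FPKM in Control livers (2.51, SE 0.21, adjusted p = 1.35e-06). At P1 Serpinh1 was at 31.4 and 27.8 FPKM in cKO livers and 33.0 and 27.2 FPKM in Control livers, and W4 minus P1 was -1.95 in Control livers (adjusted p = 7.68e-06). Serpine2, protease nexin 1, which inhibits thrombin and urokinase, had 3.85 and 0.930 FPKM in cKO livers, against 0.204 and 0.0211 FPKM in Control livers (1.46, SE 0.35, adjusted p = 0.00309), and its size rested on cKO replicate 1, without which it was 0.80 (adjusted p = 0.0398).

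Markers of other liver cells were higher in the same W4 cKO livers. The 5 cholangiocyte, 6 stellate and fibroblast, 5 macrophage and 5 endothelial markers were called higher, whereas 4 of 8 hepatocyte markers were called lower and 0 higher. Over all genes, 46.9% were called higher and 12.4% lower at W4. The cholangiocyte markers summed to 262 and 169 FPKM in cKO livers and 16.4 and 17.9 FPKM in Control livers, and the stellate and fibroblast markers to 227 and 164 FPKM in cKO livers and 28.6 and 27.5 FPKM in Control livers. Macrophage markers summed to 182 and 175 FPKM in cKO livers and 59.5 and 51.0 FPKM in Control livers, and endothelial markers to 108 and 121 FPKM in cKO livers and 37.5 and 36.9 FPKM in Control livers. Of the 7 neutrophil markers 0 were called at W4, and of the 5 tested lymphocyte markers 2 were higher. Elane was near 0 in both genotypes, listed at 0 in both cKO libraries and at 0.0781 and 0 FPKM in the Control libraries. The part of these cells in the serpin differences was not tested.

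The proteases that serpins restrain moved in both directions. Of 28 tested targets, 9 were higher and 2 lower in cKO livers at W2, where 24.6% and 4.49% of all genes were. At W4, 8 were higher and 7 lower, where 46.9% and 12.4% of all genes were. Plat, tissue plasminogen activator, had 36.3 and 35.8 FPKM in cKO livers, against 0.0380 and 0.0885 FPKM in Control livers at W4 (5.12, adjusted p = 1.19e-09). The epithelial membrane proteases St14 (4.30) and Prss8 (3.64) were higher too, and plasma kallikrein, Klkb1, a target of Serping1, differed by -2.92 (adjusted p = 2.74e-08, 3.34e-08 and 6.17e-08). Thrombin, F2, a target of Serpinc1 and Serpind1, had 489.7 and 232 FPKM in cKO livers, against 114 and 93.6 FPKM in Control livers at W2 (1.70, adjusted p = 0.00518), the age when both inhibitors were higher too. Ctsl (2.31), C1ra (1.42) and Prss8 (1.60) were also higher at W2. These W2 differences are on the deposited scale, where the high mitochondrial share of the W2 Control libraries lowers other genes. Rescaled values are not given for these proteases.

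Other acute-phase genes moved in both directions at W4. Of 20, 6 were higher and 0 lower at W2, a share of higher genes near the 24.6% of all genes. At W4, 5 were higher and 3 lower, beside 46.9% and 12.4% of all genes. At W4 Lcn2 (4.98) and Hpx (1.86) were higher, and Crp (-2.88) and Orm1 (-2.84) were lower. Collagen and matrix genes, which Serpinh1 serves, were higher at W4 in 15 of 16, including Col4a1 (3.34) and Col3a1 (2.71). Among other hormone carriers and hormone-axis genes of liver, 5 of 10 were lower in cKO livers at W4 and 1 was higher. Ttr, the other thyroxine carrier of plasma, differed by -2.08 while Serpina7 was higher. Of 12 liver transcription factors, 5 were lower and 2 higher in cKO livers at W4, with Hnf4a at -0.72 and Cebpa at -1.74.

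Members also changed between P1 and W4 within each genotype. In cKO livers sex and age coincide in this comparison, both P1 livers being female and both W4 livers male, and they cannot be told apart there. In cKO livers 15 members rose between P1 and W4 (31.7% of all genes did) and 4 fell (25.4%), and with a term for sex 11 rose and 2 fell. The calls of Serpina1a, Serpina3i, Serpina3n, Serpinf2, Serping1 and Serpinh1 were lost with that term. In Control livers 5 rose (12.4% of all genes) and 9 fell (42.1%), and median-of-ratios rescaling turned that split to 9 and 6. The 2 genotypes' counts were not tested against each other. Serpina3k rose in both, by 5.67 in cKO livers and 3.69 in Control livers (adjusted p = 9.98e-06 and 0.000275). Serpinb6a, Serpinb6b and Serpinh1 were called in both with opposite signs, lower with age in Control livers and higher in cKO livers. The Serpinh1 rise in cKO livers was lost under 7 of 11 alternatives, among them either rescaling and the fit without cKO replicate 1 of W4 (0.36). Serpina5 had the same pattern at low values (1.31 in cKO and -0.73 in Control livers). Its fall in Control livers was lost under 6 of the 8 alternatives that tested it, among them those without either W4 Control library.

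Averaged over the 4 ages, 14 members were higher in cKO livers (40.6% of all genes were) and 7 were lower (9.81%). With a term for sex 7 were higher and 2 lower. The largest mean differences were those of Serpina1e (-3.92, SE 0.57, adjusted p = 0.000149), Serpina10 (1.86, SE 0.13, adjusted p = 6.98e-07) and Serpina7 (1.42, SE 0.15, adjusted p = 1.41e-05), and Serpina10 and Serpina7 were higher in both cKO libraries at all 4 ages. Serpina3k, called at no single age, was lower in cKO livers for the mean (-0.97, SE 0.31, adjusted p = 0.0196), a call lost with a term for sex (adjusted p = 0.0882), with no filter (adjusted p = 0.0582), without the W1 libraries (adjusted p = 0.0972) and without P1 cKO replicate 1 (-0.82, adjusted p = 0.0514). The difference depended on age in 23 of the 30 members, or 76.7%, against 49.6% of all genes. Serpina1b, Serpina1d and Serpina3c were called in none of the 8 comparisons.

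The other 31 members were not tested because they did not reach 1 FPKM in 2 libraries. Of these, 6 clade B members were listed at 0 in every library and 25 had a value above 0 somewhere, the highest being 1.01 FPKM for Serpinb8 in a W4 cKO library. Serpina9, known from human B cells, had 0.0746 and 0.104 FPKM in cKO livers, against 0.883 and 0.661 FPKM in Control livers at W4, and Serpini1, neuroserpin, had 0.749 and 0.454 FPKM in cKO livers, against 0.0376 and 0.175 FPKM in Control livers, both with groups apart. The Serpinb9 copies Serpinb9b, Serpinb9e and Serpinb9f had their highest values, 0.430, 0.243 and 0.244 FPKM, in W4 cKO replicate 1. These low values are given as a description.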

How the data were processed

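Poly(A) RNA from mouse liver was sequenced as paired-end reads, aligned to mm10 with HISAT2 and compared with DESeq2 by the authors, per the study's methods and the submitters' processing notes. The authors deposited 1 FPKM value for each gene in each library. No source used here names the counting tool, its use of strand or the annotation. Each of the 16 value columns matched a sample and 0 were left over. Livers of 8 weeks listed in the study were not analysed here.

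The 14913 genes that reached 1 FPKM in 2 or more libraries were fitted as log2(FPKM + 1) using limma 3.58.1 (R 4.3.3), giving each group a coefficient, a trend in the variance and Benjamini-Hochberg adjustment over all genes. A call is an adjusted p under 0.05. The 8 comparisons were cKO minus Control at each age, their mean over the 4 ages, their dependence on age (joint test of 3 coefficients), and W4 minus P1 in each genotype. Comparisons at 1 age share libraries with those over ages. SE is the standard error of the coefficient, and SD is that of 2 libraries. Labels give 2 numbered libraries per group, and the study's methods list 2 individuals for each time point. The p-values measure the spread between libraries within groups, estimated over all 8 groups together, which may be technical in part. Depth was estimated from the steps between low FPKM values with GENCODE M21 gene lengths, and 67.5 to 74.4% of low values lay within 0.1 read of a whole number, too few for a count test. Expression of genes with near-identical copies is uncertain.

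Members follow the rule on symbol and biotype. Of the tested members, 1 is included in the counts but not reported here by itself. Members and gene lists were chosen with earlier results of these data known. Values in every library are given for members called at an age or in the mean, or with a mean of at least 100 FPKM in a group, and otherwise by range. List genes named are those called with the smallest adjusted p, up to 4 per list and comparison. The alternatives were median-of-ratios and nuclear-total scaling, 0.1 FPKM added, no filter, the replicate number as a block, a term for sex, the ages compared alone, the study's threshold, the W1 libraries left out (mean and dependence on age), and each library left out. The fit was tested on simulated data. Promoters are from RefSeq (GRCm38.p6), and 52 of the 61 members matched. Motifs were searched on both strands. Sex was called male at an Eif2s3y of 1 FPKM or more. Python 3.11.15, pandas 2.3.3 and matplotlib 3.10.9 were used.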

Additional observations from a re-analysis of the deposited data

Results flagged for a closer look

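The difference between cKO and Control livers was not the same at the 4 ages in 23 of the 30 tested members, by the joint limma test of its dependence on age with adjustment over all genes, and the values in parentheses are adjusted p-values for 22 of them. Among intracellular and matrix-related serpins these were Serpinb6a (4.61e-06), Serpinb6b (1.49e-05), Serpinb9 (0.000268), Serpinb1a (0.00184), Serpinh1 (0.000245) and Serpine2 (0.0436). The differences of these 6 genes at P1 ranged from -0.60 for Serpinb6a to -0.02 for Serpinh1, and at W4 from 1.46 for Serpine2 to 4.71 for Serpinb6a.

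Among clade A genes called higher at W4 they were Serpina3m (0.00305), Serpina3g (0.00377), Serpina3f (0.014), Serpina3i (0.0191), Serpina3n (0.0383), Serpina5 (0.00667), Serpina7 (0.0279) and Serpina10 (0.00401). In Serpina3m and Serpina5 the P1 difference was below 0 and the W4 difference above 0 (-1.43 and 1.80, and -0.71 and 1.33). Serpina10 and Serpina7 were above 0 at every age. The values of Serpina3i, and of Serpina12 in the next group, are descriptions only, since each reached 1 FPKM in 1 group. So are those of Serpina5, which reached 1 FPKM only in W4 cKO replicate 1 and P1 Control replicate 2.

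Among genes called lower at W4 they were Serpina1e (0.00627), Serpina11 (0.00678), Serpina12 (0.00151) and Serping1 (0.0405), and among genes called higher at W2 and not at W4 they were Serpinc1 (0.00201), Serpind1 (0.00487), Serpinf1 (0.00387) and Serpina6 (0.024). Serpinc1 had -0.61 at P1, 1.68 at W2 and -0.29 at W4, and Serpina6 had 1.58 at P1 and -0.77 at W4. Of all genes tested, 49.6% passed the same test. With a term for sex 18 members passed.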

How the results depend on the processing

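Of 85 member calls with a direction, 55 were kept under every alternative that tested the gene, the study's threshold left aside, and 49 with that threshold too. For 9 of the 85 some alternatives did not test the gene, which fell under the filter. Of the 1166 values under alternatives other than the study's threshold, 1036 stayed past the adjusted p, 130 fell short of it and 0 changed direction. The calls kept with the study's threshold too were 18 of 21 at W4, 4 of 9 at W2, 0 of 1 at W1, 5 of 21 for the mean, 13 of 19 for W4 minus P1 in cKO and 9 of 14 in Control. Counts of members called moved by more than 1.5 times as follows. At P1 the study's threshold gave 4 in place of 0. At W1, in place of 1, nuclear-total scaling gave 3, the replicate block 2, the term for sex 0, the W1 libraries alone 2 and the study's threshold 4. For the mean over ages, in place of 21, the term for sex gave 9 and the study's threshold 6. With each library left out in turn the count ranged from 0 to 0 at P1, 1 to 2 at W1, 4 to 11 at W2, 18 to 21 at W4, 17 to 20 for the mean, 18 to 23 for the dependence on age, 10 to 12 for W4 minus P1 in Control and 13 to 19 in cKO. The low W2 counts of 4 came without W2 Control replicate 2 or without W2 cKO replicate 1. The split at W2 was 7 higher and 1 lower by median of ratios and 5 and 1 by nuclear totals, the lower one being Serpina1e. With no filter 55 members were tested and 24 were higher and 7 lower at W4.

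Same-numbered libraries did not deviate together at every age (correlation 0.0152 at P1, 0.135 at W1, 0.0189 at W2 and 0.0857 at W4), so the numbers do not pair them. The replicate block gave 13 members at W2 and 22 at W4. Over all genes, counts moved by more than 1.5 times at P1 (25 genes) to 7 with the block, 39 by nuclear totals, 98 with no filter, 12 with the term for sex, 1 for the age alone, 220 by the study's threshold and as few as 2 without P1 cKO replicate 1. At W1 (720) they moved to 464 with the block, 18 with the term for sex and 223 to 292 without 1 W1 library. At W2 (4344) they moved to 2603 for the age alone, 1875 by the study's threshold, 2674 without Control replicate 1 and 2089 without cKO replicate 1. The study's threshold gave 4721 in place of 8833 at W4, 631 in place of 7512 for the mean, and for W4 minus P1 4348 in place of 8511 in cKO and 4319 in place of 8114 in Control. The term for sex gave 3674 for the mean and 4550 for W4 minus P1 in cKO. A value of a low gene rests on few reads, and fitted folds near 0 FPKM depend on the 1 FPKM added. Causes of these changes were not tested.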

Other observations

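Some serpin-related rows lie outside the members by name or biotype. Serpina4-ps1, listed as an unprocessed pseudogene, had 0.104 and 0.144 FPKM in cKO livers, against 424 and 93.8 FPKM in Control livers at W4, while it stayed at or under 3.34 FPKM in all libraries of the earlier ages. The groups were apart at W4 by far more than the spread of the cKO libraries, and the Control libraries differed from each other in the same order as for Serpina1e. The pseudogene was looked up after the values of its neighbours were seen. Agt, angiotensinogen, a non-inhibitory serpin named outside the clade scheme, had 1595 and 1230.5 FPKM in cKO livers, against 624 and 519 FPKM in Control livers at W2 and 344 and 455 FPKM in cKO livers, against 404 and 399 FPKM in Control livers at W4, apart at W2 and overlapping at W4. Serpinb10, listed as a polymorphic pseudogene, had 2.47 and 1.22 FPKM in cKO livers, against 2.44 and 1.97 FPKM in Control livers at P1 and 0.0384 and 0.134 FPKM in cKO livers, against 0.0222 and 0.103 FPKM in Control livers at W4, overlapping at both ages.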
